A study of Mus musculus with 25 samples.

Results

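The loss of the ligand gene Il1b was compared with the loss of the receptor gene Il1r1 in JAK2-mutant blood stem cells of mice, 2 weeks after tamoxifen. The comparison took the 4 libraries of each knockout at that time, 8 of the 25 libraries of the series. Recipient mice had been engrafted with marrow of donors labelled SclCre;V617F;IL-1b-/-GFP (Il1bKO below) or SclCre;V617F;IL-1R1-/-GFP (Il1r1KO below), and tamoxifen was started 16 weeks later. Both groups therefore carried the tamoxifen-dependent Cre driven by Scl regulatory sequence, the human JAK2 V617F construct and GFP, and differed by label only in the gene deleted. Reference values came from libraries labelled SclCre;V617F;GFP (VF, JAK2-mutant with both IL-1 genes) and SclCre;GFP (WT), 4 each at 2 weeks, and the same 2 knockouts were also sampled at 4 weeks with 3 libraries each. The recipients' genotype is not given in the sources used here, and the genes of their non-haematopoietic cells are their own whatever the donor carried. The cells sequenced, in bulk, were long-term blood stem cells gated as Lin-Sca1+cKit+CD48-CD150+. All 8 libraries belong to 1 of the 2 processing batches in the labels, which coincide with the 2 times. Where the labels do not say that each library is a separate mouse, p-values measure the spread between these libraries.

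IL-1β, the product of Il1b, is an inflammatory cytokine that is cut to its active form and released mainly by myeloid cells. It binds IL-1R1, which pairs with the accessory protein IL-1RAP and signals through MyD88, IRAK kinases and TRAF6 to NF-kB. IL-1α acts through the same receptor, so that loss of Il1r1 blocks both ligands in the cells that lack it, whereas loss of Il1b leaves IL-1α. JAK2 V617F is a kinase variant that signals without cytokine and is the common driver of myeloproliferative neoplasms, and IL-1 is known to push blood stem cells towards myeloid output. Il1a and Il1rn were not analysed here.

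Few genes separated the 2 knockouts. Of 13630 genes tested with edgeR's quasi-likelihood test, 5 passed a Benjamini-Hochberg adjusted p of 0.05, which is 0.0367% of them. Dock2 was lower in Il1bKO than in Il1r1KO (0.00734% of the genes tested), and Trak2, Wdfy1, Lancl1 and Acadl were higher (0.0293%). DOCK2 activates the small GTPase Rac in blood cells and is needed for their directed migration. TRAK2 links mitochondria to motor proteins, WDFY1 is an adaptor of Toll-like receptors on endosomes, LANCL1 binds glutathione, and ACADL starts the mitochondrial oxidation of long-chain acyl-CoA. The last 4 genes all lie on chromosome 1, which also carries Il1r1, between 18.6 and 39.4 Mb from it.

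The 250 bases before the transcription start of the called genes are shown so that the shared and differing letters of these start regions can be read beside their levels. RefSeq (GRCm38.p6) held an entry for 4 of the 5 called genes, and Wdfy1 is named only. The windows, all on the minus strand, are chr11:34783906-34784155 for Dock2, chr1:58973483-58973732 for Trak2, chr1:67038835-67039084 for Lancl1 and chr1:66863310-66863559 for Acadl. Capitals mark every match, on either strand, to 1 of 6 motifs that were searched: an NF-kB type motif (GGGANNNNCC), a STAT type motif (TTCNNNGAA), AP-1 (TGANTCA), the GC box (GGGCGG), the CCAAT box (CCAAT) and CRE (TGACGTCA).
Dock2: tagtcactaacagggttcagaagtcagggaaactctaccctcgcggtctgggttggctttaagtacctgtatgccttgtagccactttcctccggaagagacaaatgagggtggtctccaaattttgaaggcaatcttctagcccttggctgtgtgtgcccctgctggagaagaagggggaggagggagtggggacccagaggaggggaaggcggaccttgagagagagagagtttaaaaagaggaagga
Trak2: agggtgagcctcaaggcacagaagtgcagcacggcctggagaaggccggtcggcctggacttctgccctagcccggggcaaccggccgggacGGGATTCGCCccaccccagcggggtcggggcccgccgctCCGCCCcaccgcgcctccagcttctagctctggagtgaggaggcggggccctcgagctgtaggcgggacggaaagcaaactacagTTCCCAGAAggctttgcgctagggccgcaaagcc
Lancl1: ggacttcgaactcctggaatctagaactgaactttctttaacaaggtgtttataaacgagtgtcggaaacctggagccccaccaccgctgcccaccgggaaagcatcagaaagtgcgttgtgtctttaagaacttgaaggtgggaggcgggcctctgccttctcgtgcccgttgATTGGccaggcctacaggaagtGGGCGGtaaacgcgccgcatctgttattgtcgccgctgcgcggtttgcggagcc
Acadl: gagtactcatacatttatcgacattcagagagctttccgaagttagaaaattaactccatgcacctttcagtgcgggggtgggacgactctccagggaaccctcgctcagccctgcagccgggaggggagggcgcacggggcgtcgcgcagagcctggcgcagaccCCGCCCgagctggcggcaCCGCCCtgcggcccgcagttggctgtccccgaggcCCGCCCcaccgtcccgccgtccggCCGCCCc
The Trak2 window held 1 NF-kB type match 148 bases before the start, 1 GC box and 1 STAT type match 25 bases before the start. Among the 32817 promoter windows of the same length, 17.6% held the NF-kB type motif, 7.01% the STAT type, 6.75% AP-1, 32.7% the GC box, 33.8% CCAAT and 1.55% CRE. Lancl1 had 1 GC box and 1 CCAAT box, and Acadl had 4 GC boxes. None of the 6 letter patterns was in the Dock2 window, and neither AP-1 nor CRE letters were in any of the 4. The GC share was 69.6% for Trak2, 68.0% for Acadl, 55.6% for Lancl1 and 52.8% for Dock2, beside a median of 52.4% over all windows. Trak2 had 21 CpG, Lancl1 18 and Acadl 25, against a median of 6, while Dock2 had 4. A match is a description of letters and no evidence of binding.

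Levels below are CPM, counts scaled to library size with TMM factors, and log2 fold changes and their SE are those of the fit, as Il1bKO minus Il1r1KO. Dock2 (ENSMUSG00000020143, chr11:34226815-34783892 in mm10, minus strand) had 138, 153, 118 and 152 CPM in the 4 Il1bKO libraries and 308, 334, 360 and 373 CPM in the 4 Il1r1KO libraries. Every Il1bKO library was below every Il1r1KO library, by a wide gap. The means were 140 CPM (SD 16.4, n = 4) and 344 CPM (SD 29.1, n = 4), a log2 fold change of -1.30 with an SE of 0.17 and an adjusted p of 0.00204 in edgeR. VF libraries, with both IL-1 genes intact, had 211 to 283 CPM, above all of the Il1bKO and below all of the Il1r1KO libraries. The 4 WT libraries ran from 168 to 394 CPM, a range that reaches from near the Il1bKO level to above the Il1r1KO level.

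Trak2 (chr1:58900449-58973430) had 63.7, 66.1, 64.0 and 65.4 CPM in Il1bKO and 27.2, 37.5, 36.4 and 34.8 CPM in Il1r1KO. The Il1bKO libraries lay close together, and all of the Il1r1KO libraries lay well below them. Means were 64.8 (SD 1.15, n = 4) and 34.0 CPM (SD 4.64, n = 4), a log2 fold change of 0.93 (SE 0.13) with an edgeR adjusted p of 0.00206. The VF mean was 59.9 CPM (SD 2.44, n = 4), on the Il1bKO side of the gap. The WT mean was 50.6 CPM (SD 1.03, n = 4).

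Wdfy1 (chr1:79702262-79776143) showed the largest fold of the 5 called genes. Its levels were 155, 158, 144 and 150 CPM in Il1bKO and 44.5, 29.9, 33.1 and 44.3 CPM in Il1r1KO. No Il1r1KO library reached the level of any Il1bKO library. The fit gave a log2 fold change of 2.00 (SE 0.34) with an edgeR adjusted p of 0.0173, and the VF mean of 154 CPM was close to the Il1bKO mean of 152. WT libraries, which carry neither knockout, had 29.6, 78.9, 179 and 146 CPM. The WT libraries thus spanned both knockout levels within 1 genotype.

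Lancl1 (chr1:67000517-67038872) had 122, 139, 109 and 130 CPM in Il1bKO and 75.6, 71.5, 69.4 and 72.3 CPM in Il1r1KO. The lowest Il1bKO library was above the highest Il1r1KO library. The log2 fold change was 0.79 (SE 0.13) with an edgeR adjusted p of 0.0173, and VF and WT means were 140 and 130 CPM. Acadl (chr1:66830839-66863277), the neighbour of Lancl1, had 199, 175, 195 and 192 CPM in Il1bKO and 119, 94.7, 120 and 115 CPM in Il1r1KO. Its groups did not overlap either. The log2 fold change was 0.76 (SE 0.14) with an edgeR adjusted p of 0.0444, and VF and WT means were 191 and 202 CPM. For all 4 chromosome 1 genes the VF mean was nearer to the Il1bKO mean than to the Il1r1KO mean.

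**Figure D1:**
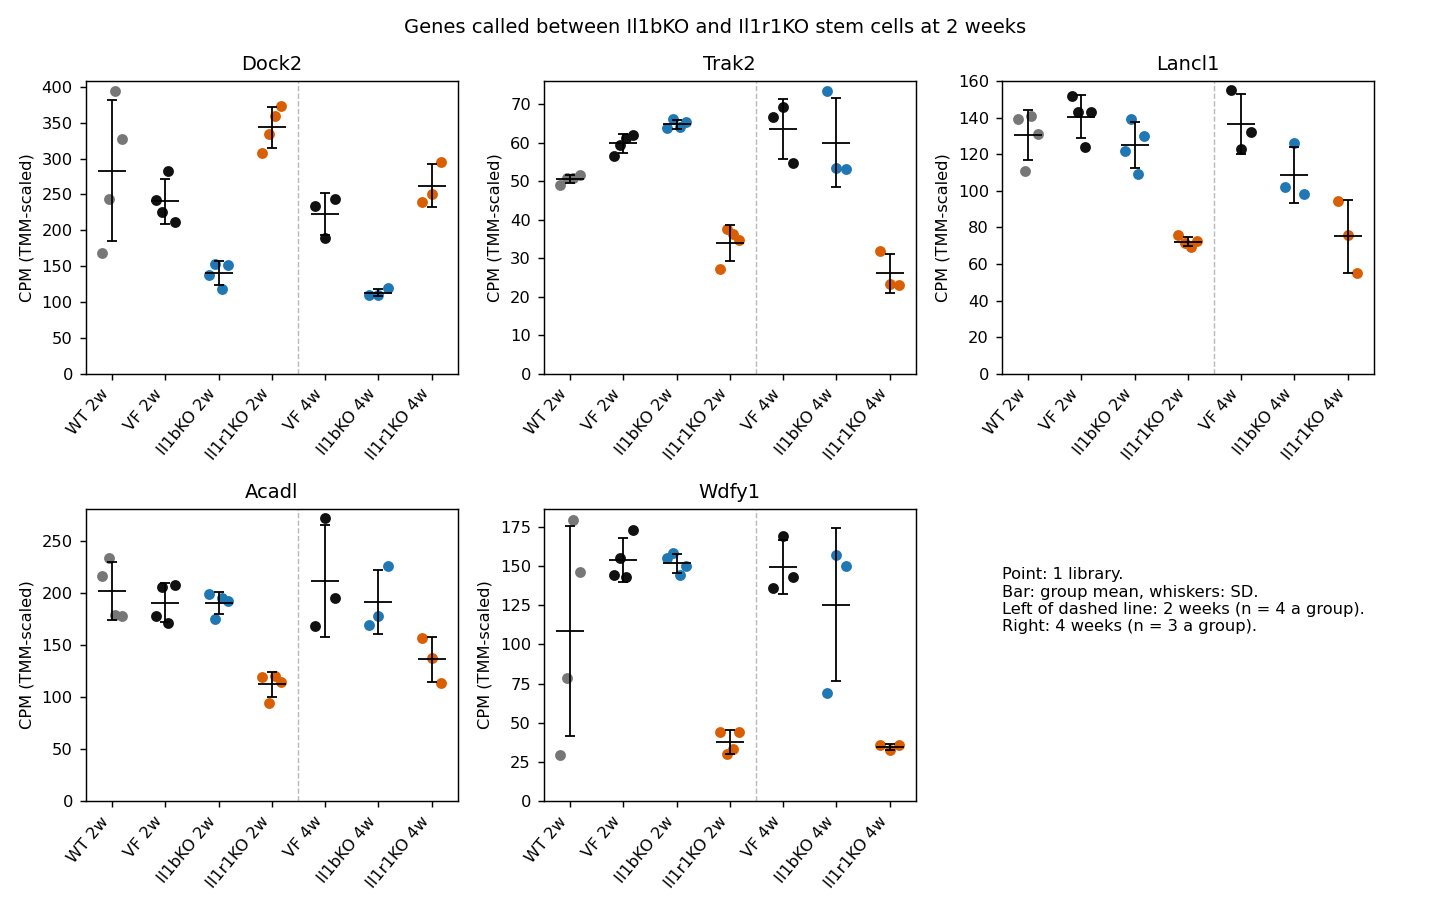
Levels of the 5 called genes in each library (points, CPM on a linear axis from 0) by genotype and time, with group means and SD. Dock2 in VF lies between the knockouts at 2 weeks, the chromosome 1 genes are lower in all Il1r1KO than in all Il1bKO libraries of the same time, and WT libraries vary widely for Dock2 and Wdfy1.

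Calls differed in how firmly they held. Dock2 passed in all 19 alternative fits, with log2 fold changes from -1.35 to -1.22, and Trak2 passed in 18 of 19. Wdfy1 passed in 10 of 19, Lancl1 in 11 and Acadl in 8, and most of their losses came when single libraries were left out. With all 8 libraries kept, Wdfy1 was lost with the 2 week libraries only and with the replicate block (edgeR adjusted p = 0.0641 and 0.0674). Lancl1 was lost with the block in the compared groups alone (edgeR adjusted p = 0.174). Acadl was lost there too, with the block over all groups and with RLE scaling (edgeR adjusted p = 0.116, 0.205 and 0.052). Wdfy1 no longer passed when any of the 8 libraries other than Il1bKO 3 was left out, with edgeR adjusted p from 0.0545 (without Il1bKO 1) to 0.13 (without Il1r1KO 2). Lancl1 no longer passed without the same libraries, with adjusted p from 0.0545 (without Il1bKO 1) to 0.119 (without Il1r1KO 3). Acadl no longer passed when any of the 8 was left out, with adjusted p from 0.0927 (without Il1bKO 2) to 0.209 (without Il1r1KO 2). Fold changes moved little in these fits: 1.90 to 2.08 for Wdfy1, 0.73 to 0.85 for Lancl1 and 0.69 to 0.80 for Acadl on the log2 scale.

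Levels of the targeted genes are given for every library. Il1b (chr2:129364570-129371139) had 0 reads in all 4 Il1bKO libraries. In Il1r1KO it had 16, 0, 17 and 32 reads, or 0.561, 0, 0.666 and 1.02 CPM, so that 1 library of the receptor knockout was also at 0. Against a floor of 3 reads over the Il1bKO group, Il1b was at least 21.4-fold higher in Il1r1KO (edgeR adjusted p = 1.0). Il1r1 (chr1:40225080-40317257) had 11.1, 12, 19.2 and 22.3 CPM in Il1bKO and 30.9, 15.4, 31.1 and 26.4 CPM in Il1r1KO. The receptor knockout thus kept reads on its target, and the groups overlapped (log2 fold change -0.68, SE 0.60, edgeR adjusted p = 1.0). Counts are over the whole gene, so they do not show which exons remain, and the Il1r1KO label could not be checked this way.

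Other members of the IL-1 pathway gave no call. Of 30 listed ligands, receptors and relay genes 27 were tested and 0 passed in edgeR. Of these, 16 had a positive and 11 a negative fold change, with a median log2 fold change of 0.07, beside a median of -0.01 and 48.8% positive among all genes tested. At an unadjusted p of 0.05 the list had 1 gene, Il1b, or 3.7%, against 3.02% of all genes. The co-receptor gene Il1rap had means of 34.4 (SD 10.8) and 27.2 CPM (SD 9.79), and the decoy receptor gene Il1r2 had 1.29 and 0.795 CPM. The relay genes Myd88 (93.7 and 107 CPM), Irak4 (51.8 and 47.2 CPM) and Traf6 (73.5 and 53.9 CPM) were all expressed in both groups.

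Receptor genes beside Il1r1 on chromosome 1 varied more. Il18rap, a subunit of the IL-18 receptor, had 20.1, 31.1, 26.0 and 34.5 CPM in Il1bKO and 6.48, 26.2, 18.6 and 11.5 CPM in Il1r1KO. The groups overlapped through Il1r1KO 2 (log2 fold change 0.83, SE 0.41, edgeR adjusted p = 1.0). Il18r1, the ligand-binding subunit, had 0, 7.25, 2.21 and 6.79 CPM against 1.09, 0, 0.431 and 1.05 CPM. Each group held a library at 0, and the log2 fold change of 2.65 had an SE of 1.56. Il1rl1, the IL-33 receptor gene, was at 0 in 3 libraries of each group.

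Among the NF-kB subunits, inhibitors and targets 33 were tested and 0 passed in edgeR, with 19 positive, 14 negative and a median of 0.07. The median ranged from 0.00 to 0.17 over the alternatives. The lowest unadjusted p values belonged to Cflar, an inhibitor of caspase-8, with 84.5 and 67.1 CPM, and Nfkb2, the p100 subunit, with 42.4 and 33.5 CPM. Neither passed (edgeR adjusted p = 1.0 for both). Immediate early genes, which follow many stimuli including cell handling, gave 17 positive and 13 negative of 30 with a median of 0.07. Its sign turned in 3 of the 19 alternatives. Dusp1, a MAP kinase phosphatase, had 283 (SD 34.3) and 189 CPM (SD 39.2) without passing.

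Mouse Jak2 had nearly the same mean in both knockouts, 107 (SD 22.8) and 105 CPM (SD 17.8), a log2 fold change of 0.03 with an SE of 0.17. The feedback inhibitor Socs2, a STAT5 target, had 185, 296, 134 and 191 CPM in Il1bKO and 263, 336, 357 and 203 CPM in Il1r1KO. The ranges overlapped, and the log2 fold change of -0.52 (SE 0.24) had an edgeR adjusted p of 1.0. The STAT5 targets Cish and Pim1 had log2 fold changes of -0.44 (SE 0.33) and -0.25 (SE 0.24), and neither passed. Over the 33 tested genes of the JAK-STAT list 16 were positive and 17 negative, with a median of -0.02 and 0 calls.

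Among the transgenes, both human JAK2 parts and pEGFP had groups that did not overlap, as held for 3.62% of all genes tested. The 4 construct sequences sat outside the gene fit, so their p values cannot be ranked against those of genes. They were compared by an exact two-sided permutation test of 4 against 4 libraries, whose smallest p is 0.0286, adjusted over 4 constructs. Reads on exons 3 to 12 of human JAK2 came to 98.4, 125, 115 and 112 CPM in Il1bKO and to 198, 178, 218 and 189 CPM in Il1r1KO. The groups did not overlap, and Il1bKO was lower by a log2 difference of -0.80 (a 1.74-fold difference of means, exact permutation p = 0.0286, adjusted 0.0381). Exons 13 to 25 gave means of 63.9 (SD 6.98) and 108 CPM (SD 5.18), a log2 difference of -0.75 with the same exact p values. The VF means were 116 CPM for the first and 46.4 CPM for the second part, both nearer to Il1bKO.

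Reads on pEGFP, the reporter, came to 498, 465, 450 and 473 CPM in Il1bKO and to 868, 897, 972 and 937 CPM in Il1r1KO. Every receptor knockout library held more than every ligand knockout library, a 1.95-fold difference of means (log2 -0.96, exact permutation p = 0.0286, adjusted 0.0381). VF libraries had 462 to 480 CPM, within the range of Il1bKO. WT libraries, which are labelled with GFP too, had 998, 518, 3.03 and 49.3 CPM, a spread wider than the difference between the knockouts. CreERT2, the recombinase, had 529, 568, 532 and 527 CPM in Il1bKO and 453, 595, 321 and 454 CPM in Il1r1KO, and these ranges overlapped (exact permutation p = 0.143). Both knockouts were above the VF range of 243 to 318 CPM, and the WT libraries, although labelled SclCre, had at most 0.0365 CPM. The allele copy number of each construct is not given in the sources used here, and its part in these levels was not tested. The ratio of the first to the second JAK2 part was 1.78 (SD 0.224, n = 4) in Il1bKO and 1.83 (SD 0.175, n = 4) in Il1r1KO.

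**Figure D2:**
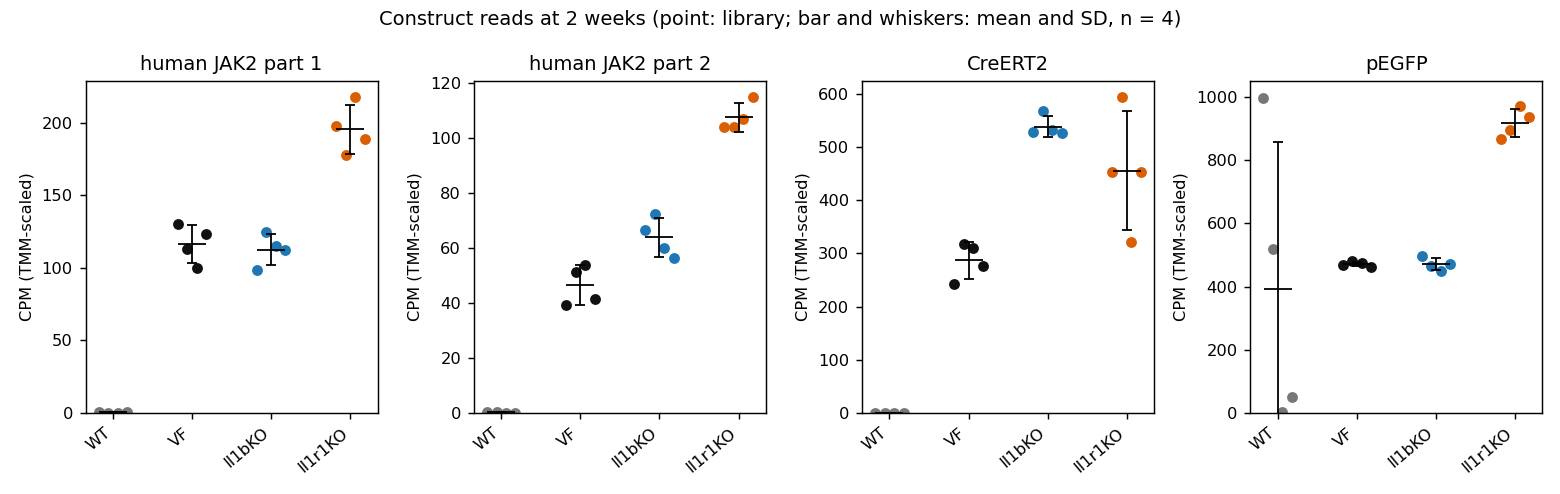
Reads of the 4 construct sequences by library at 2 weeks (points, CPM on linear axes from 0), with means and SD of 4 libraries. Both JAK2 parts and pEGFP are higher in all 4 Il1r1KO libraries than in any Il1bKO library, while CreERT2 overlaps.

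Stem cell marker transcripts were present in both groups, although RNA levels do not test the surface gate itself. Procr had means of 115 and 98.0 CPM, Slamf1 (CD150) 108 and 122, Ly6a (Sca-1) 173 and 188, and Mecom 318 and 358 CPM. Slamf1 varied within Il1r1KO, at 99.4, 58.4, 160 and 170 CPM. Cd48, which the gate excludes, was at 2.57 and 2.84 CPM. Of 42 tested stem cell markers and regulators 19 were positive and 23 negative, with a median of -0.02 and 0 edgeR calls. Kit, the stem cell factor receptor used in the gate, had 796, 914, 925 and 984 CPM in Il1bKO and 600, 702, 706 and 743 CPM in Il1r1KO. The groups did not overlap, as held for 3.62% of all genes tested, but the log2 fold change of 0.40 (SE 0.13) did not pass (edgeR adjusted p = 1.0). Hlf, a transcription factor of stem cell maintenance, had 391 (SD 61.7) and 267 CPM (SD 89.9), also without passing. In bulk libraries, fewer cells of a type and less RNA per cell cannot be told apart.

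Cell cycle genes gave no call. Of 40 S phase genes 16 were positive and 24 negative (median -0.03), and of 43 genes of G2 and M phase 25 were positive and 18 negative (median 0.03). Both signs turned in some of the alternatives, 2 and 5 of 19. Among 25 quiescence and G1 regulators 13 were positive and 12 negative with a median of 0.02. The CDK4/6 inhibitor Cdkn2c (p18) had 31.7, 38.6, 40.8 and 38.4 CPM in Il1bKO and 90.5, 59.8, 72.5 and 59.3 CPM in Il1r1KO. The CDK inhibitor Cdkn1c (p57) went the other way, with 57.9, 99.2, 62.8 and 89.0 CPM in Il1bKO and 32.1, 46.3, 56.2 and 47.6 CPM in Il1r1KO. Neither pair of groups overlapped, yet neither gene passed over all genes (edgeR adjusted p = 0.661 for Cdkn2c and 1.0 for Cdkn1c).

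Growth and energy genes leaned to one side by small amounts. Of 44 MYC targets and ribosome biogenesis genes 40 had a negative fold change, with a median of -0.14, and of 73 oxidative phosphorylation genes 66 did, with a median of -0.09, beside 51.2% negative among all genes tested. Over the 19 alternatives these medians stayed negative, from -0.18 to -0.08 and from -0.15 to -0.05. The SD between replicates was 0.1 for the MYC list and 0.11 for oxidative phosphorylation, so the second median lay within that spread. Genes of a list can vary together, so these counts are not independent. None of these genes passed in edgeR, and 4 of the MYC list (9.09%) and 0 of the oxidative phosphorylation list had an unadjusted p under 0.05, beside 3.02% of all genes tested. The summed level of the MYC list was 6620 to 8090 CPM in Il1bKO and 7730 to 8670 CPM in Il1r1KO, and that of the oxidative phosphorylation list 10700 to 12500 and 11900 to 12400 CPM, so that both sums overlapped. Ncl, nucleolin, had means of 1060 (SD 116) and 1260 CPM (SD 123) and Phb2, prohibitin 2, of 207 (SD 18.1) and 252 CPM (SD 8.82).

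Acadl was the 1 called member among 36 tested fatty acid oxidation genes, of which 15 were positive and 21 negative with a median of -0.03. The other acyl-CoA dehydrogenase genes had smaller fold changes: Acadm, for medium chains, had 214 and 199 CPM, and Acadvl, for very long chains, had 141 and 144 CPM. Cpt1a, which brings long-chain acyl groups into mitochondria, had 149 (SD 12.9) and 180 CPM (SD 19.8) and did not pass. Glycolysis (24 tested, median -0.07), cholesterol synthesis (25, median -0.02), the unfolded protein response (26, median -0.02) and p53 targets (28, median -0.06) had 0 edgeR calls each.

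The interferon lists gave 0 edgeR calls, and their medians lay within the spread between replicates. Of 42 interferon gamma and antigen presentation genes 31 were positive with a median of 0.13 (0.07 to 0.17 over the 19 alternatives, SD between replicates 0.16). Their summed level of 13500 to 15800 CPM in Il1bKO overlapped the 13300 to 14600 CPM of Il1r1KO. H2-K1, an MHC class I heavy chain, had 2700 (SD 212) and 2370 CPM (SD 113). Of 44 type I interferon response genes 27 were negative with a median of -0.06 (SD between replicates 0.12), and their sums of 3510 to 4120 and 3630 to 4130 CPM overlapped. At 4 weeks both medians had the other sign, -0.17 and 0.09. Lgals3bp had 286 and 347 CPM and Eif2ak2, the double-stranded RNA kinase, 54.0 and 74.1 CPM, and neither passed in edgeR.

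Megakaryocyte and platelet genes had the most negative median of the 27 lists, -0.36 (SD between replicates 0.25), with 0 edgeR calls. Of 27 tested 23 were negative, beside 51.2% of all genes tested. Only 1 (3.7%) had an unadjusted edgeR p under 0.05, beside 3.02% of all genes tested. The stem cell and platelet gene Vwf had means of 286 and 446 CPM (log2 -0.64), the platelet chemokine genes Pf4 67.5 and 91.3 CPM and Ppbp 5.64 and 13.3 CPM, and the membrane scaffold gene Cavin2 118 and 197 CPM. Summed levels were 3470 to 4030 CPM in Il1bKO and 4080, 2840, 4750 and 5040 CPM in the 4 Il1r1KO libraries. Il1r1KO 2 was thus below all of the Il1bKO libraries and the other three were above them. The median ranged from -0.44 to -0.09 over the alternatives.

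Lists of other cell types gave 0 edgeR calls in both directions. Neutrophil and monocyte genes (27 tested, 11 positive, median -0.13) summed to 953 to 1160 CPM in Il1bKO and 829 to 1440 CPM in Il1r1KO, and these sums overlapped. Among its granule genes Mpo was at 26.2 and 77.1 CPM, Elane at 6.83 and 27.1 CPM and Prtn3 at 171 and 160 CPM, and among its surface genes Itgam was at 19.0 and 15.6 CPM. Mpo varied widely within both groups, with 17.7, 0.857, 11.7 and 74.6 CPM in Il1bKO and 35.4, 137, 136 and 0.478 CPM in Il1r1KO. S100a8 had 0.263 to 1.65 CPM in Il1bKO and 0.561, 9.20, 3.72 and 1.15 CPM in Il1r1KO, so that its higher mean there came mostly from Il1r1KO 2. Mast cell and basophil genes (12 tested, 7 positive, median 0.22) summed to 2280 to 2450 and 2050 to 2220 CPM, and these sums did not overlap. Most of that sum came from Srgn, Kit and Gata2, which stem cells express, while Cpa3 was at 5.25 and 2.05 CPM and Prss34 at 3.29 and 0.0717 CPM. Erythroid genes (35 tested, 13 positive) had a median of -0.06 and sums of 3330 to 3880 CPM in Il1bKO and 3020 to 4430 CPM in Il1r1KO, which overlapped.

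Macrophage and dendritic genes (15 tested, 5 positive, median -0.20) summed to 151 to 201 CPM in Il1bKO and 170 to 221 CPM in Il1r1KO, and Siglech was at 0 in all Il1bKO and in 2 of 4 Il1r1KO libraries. The iron exporter gene Slc40a1, on chromosome 1 at 5.59 Mb from Il1r1, had 3.16 (SD 1.10) and 14.5 CPM (SD 5.76). It did not pass in edgeR, nor did any gene of the B lineage (8 tested, median 0.04), T and NK (8, median 0.18) or endothelial and stromal lists (12, median -0.15). Cd24a made up most of the B lineage sum at 328 and 259 CPM, beside Ighm at 1.27 and 2.39 CPM. The part of such cells in the results above was not tested.

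**Figure D3:**
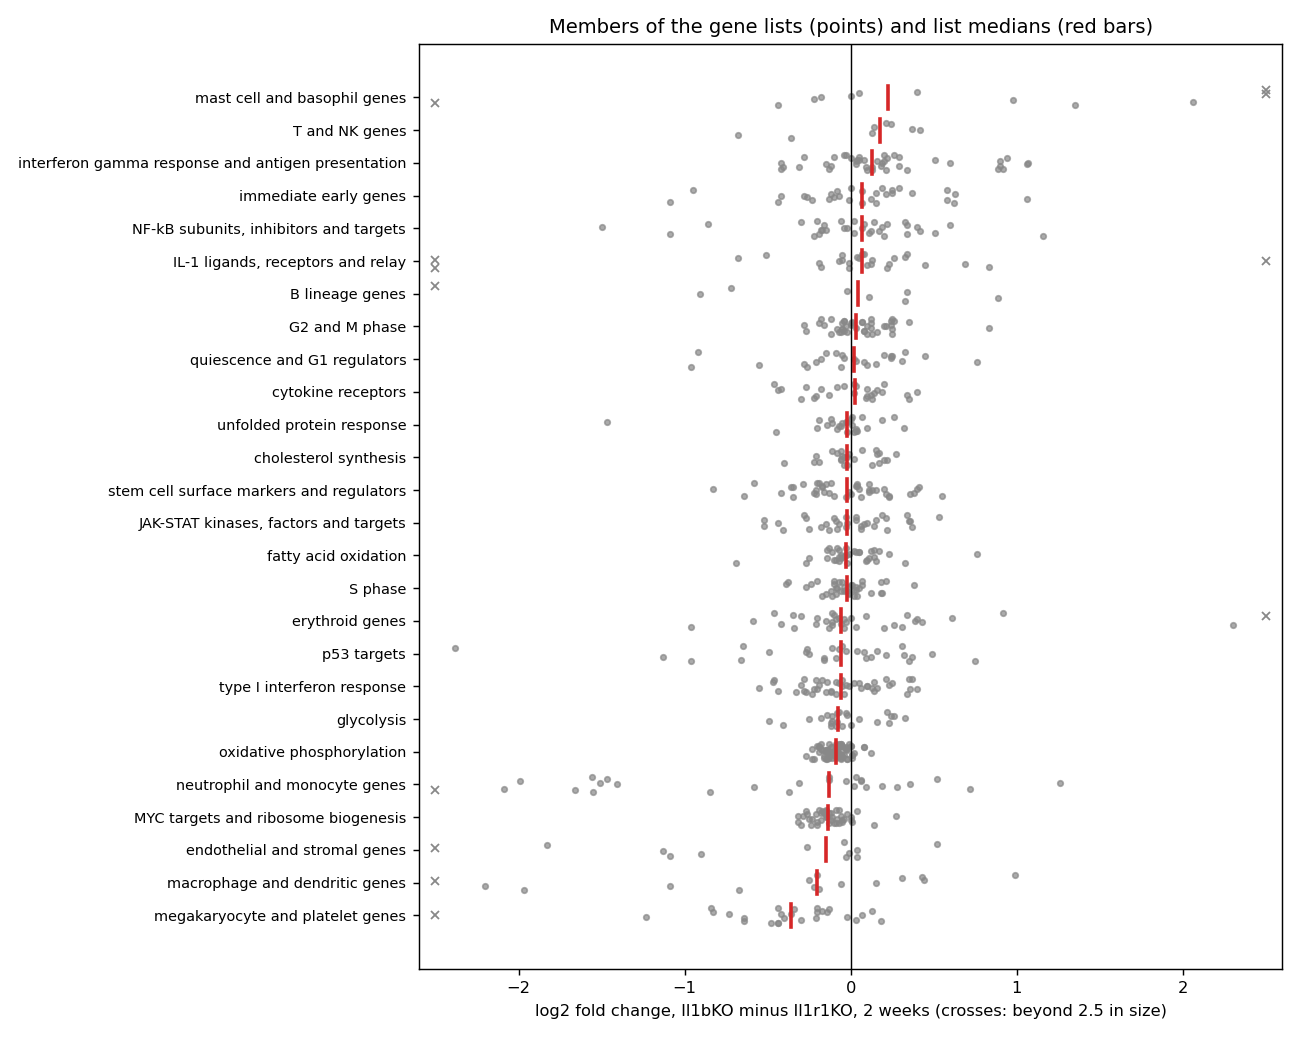
Log2 fold changes (Il1bKO minus Il1r1KO, 2 weeks) of the tested members of 26 gene lists, 1 point a gene, with list medians as red bars, ordered by median. Medians run from -0.36 for megakaryocyte and platelet genes to 0.22 for mast cell and basophil genes, and the points of every list with 10 or more members fall on both sides of 0.

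Positions of the differences along chromosome 1 were counted, since Il1r1 lies there. Of 775 other genes tested on the chromosome 4 were called and 40 (5.16%) had an unadjusted p under 0.05 in edgeR. Within 5 Mb of Il1r1 62 were tested and 0 called, with 4 at an unadjusted p under 0.05. On the side of higher coordinates the first 10 Mb held 25 tested genes, of which 6 were under 0.05, all with lower levels in Il1bKO, as for 1.34% of all genes tested. The next 10 Mb held 66, of which 5 were under 0.05, all with higher levels in Il1bKO, as for 1.67% of all genes tested. From 20 to 30 Mb there were 5 of 26, and from 30 to 40 Mb 3 of 58. Beyond 50 Mb the share was 3.88% of 438, near the 3.02% of all genes. On the side of lower coordinates 1 of 59 tested genes (1.69%) in the first 10 Mb was under 0.05. There the next 10 Mb had 1 of 13, and the rest 0 of 36.

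Near Trak2 lies Mpp4, chosen here for its position after its values were seen. It had 9.55, 11, 8.66 and 7.92 CPM in Il1bKO and 2.07, 2.95, 3.09 and 4.40 CPM in Il1r1KO. The groups did not overlap, as held for 3.62% of all genes tested, but the gene did not pass over all genes. Mpp4 had means of 9.28 and 3.13 CPM (log2 1.57, adjusted p = 0.154 in edgeR). Its level is uncertain, since the libraries were unstranded and annotations overlap there. Around Il1b on chromosome 2, 93 genes were tested within 5 Mb, 0 were called and 2 had an unadjusted p under 0.05. Called genes away from chromosome 1 came to 1, Dock2 on chromosome 11.

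**Figure D4:**
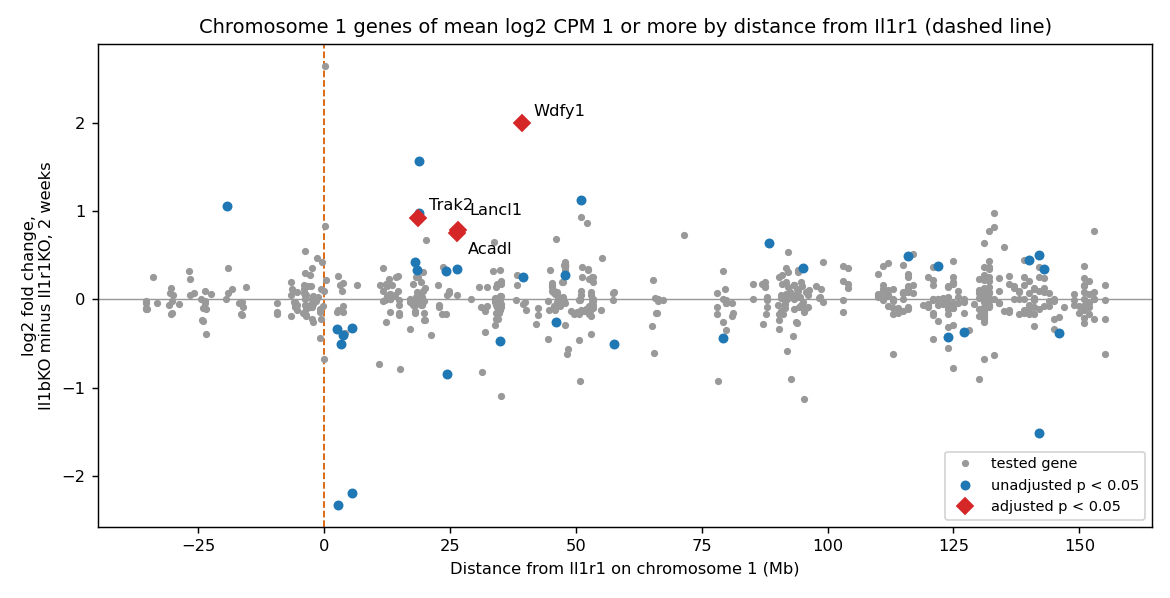
Log2 fold change (Il1bKO minus Il1r1KO, 2 weeks) of chromosome 1 genes with a mean log2 CPM of at least 1, by distance from Il1r1 in Mb. The 4 called genes lie between 18.6 and 39.4 Mb on 1 side of Il1r1, all with positive fold changes.

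Genes of low p that did not pass are named next, up to 5 in each direction with the called ones. Lrmda, a gene named for melanocyte differentiation, had 2.16, 2.14, 0.938 and 2.43 CPM in Il1bKO and 15.2, 14.1, 10.9 and 7.90 CPM in Il1r1KO. The groups did not overlap, as held for 3.62% of all genes tested. The log2 fold change of -2.65 (SE 0.52) had an edgeR adjusted p of 0.0817. VF libraries, at a mean of 2.06 CPM, had the Il1bKO level. Lrmda was called in 5 of the 19 alternatives. DESeq2 and limma voom called it, at adjusted p of 6.6e-05 and 0.00207. So did edgeR with the 2 week libraries only, the compared groups only and without Il1bKO 5 of 4 weeks (adjusted p = 0.0154, 0.0454 and 0.0388). Strap, which binds the TGF-β receptor and the SMN complex, had 197 (SD 26.4) and 285 CPM (SD 20.3), with an edgeR adjusted p of 0.19. DESeq2, limma voom and edgeR on the 2 week libraries only called Strap (adjusted p = 0.00943, 0.00142 and 0.0266). At 4 weeks Strap passed with the same sign (log2 fold change -0.73, edgeR adjusted p = 0.0263). 1700047I17Rik2 had 56.6 (SD 11.3) and 27.8 CPM (SD 3.18), with an edgeR adjusted p of 0.121. Its adjusted p was 0.00437 in DESeq2 and 0.0219 in limma voom. The predicted genes Gm3435 (24.0 and 37.0 CPM) and Gm14325 (5.59 and 10.9 CPM) completed the 5 lowest p values with lower levels in Il1bKO. DESeq2 called both, at adjusted p of 0.0473 and 0.028. 1700047I17Rik2 and Gm14325 lie among near-identical copies, between which reads could be split, so their levels are uncertain.

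The same genotypes at 4 weeks gave a second set of libraries, from the other processing batch. Il1bKO 5 of that set stood apart, with 11871 detected genes against 13158 and 13039 in Il1bKO 6 and 7. Its median correlation to its group was 0.897, against 0.935 and 0.933 for Il1bKO 6 and 7. There 16 genes passed in edgeR (0.117% of 13630), among them Trak2 and Dock2, which is 40% of the genes called at 2 weeks and 12.5% of those called at 4 weeks. Dock2 had 110, 110 and 119 CPM in Il1bKO and 240, 251 and 296 CPM in Il1r1KO, a log2 fold change of -1.22 (SE 0.20, edgeR adjusted p = 0.00813). Trak2 had 73.4, 53.5 and 53.1 CPM against 31.8, 23.3 and 23 CPM, a log2 fold change of 1.20 (SE 0.15, edgeR adjusted p = 7.3e-04). Neither gene's groups overlapped at that time.

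Wdfy1 had 69.1, 157 and 150 CPM in Il1bKO and 36.0, 32.6 and 35.7 CPM in Il1r1KO at 4 weeks. The lowest Il1bKO library, Il1bKO 5, was still above the Il1r1KO libraries. The log2 fold change of 1.85 missed the threshold (SE 0.39, edgeR adjusted p = 0.0589). Lancl1 (0.54, adjusted p = 0.161 in edgeR) and Acadl (0.49, adjusted p = 0.193) had smaller fold changes than at 2 weeks and did not pass. All 5 genes had the same sign as at 2 weeks, with groups that did not overlap, as for 10.5% of all genes tested at 4 weeks. The difference between the times was itself tested for each: its unadjusted edgeR p was 0.765 for Dock2, 0.183 for Trak2, 0.762 for Wdfy1, 0.224 for Lancl1 and 0.209 for Acadl.

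Over all genes 0 differed between the 2 times in edgeR after adjustment, 862 had an unadjusted p under 0.05 (6.32%), and DESeq2 called 34. The lowest p among the genes named here belonged to Cpt1a, chosen after its values were seen, with log2 fold changes of -0.27 at 2 and 0.85 at 4 weeks and an unadjusted edgeR p of 1.4e-05 for the difference. Its 4 week levels were 264, 145 and 176 CPM in Il1bKO 5, 6 and 7, and 97.0, 110 and 119 CPM in Il1r1KO. The highest of these came from Il1bKO 5, the library that stood apart. Cdkn2c had a log2 fold change of -0.92 at 2 and -0.05 at 4 weeks and an unadjusted edgeR p of 0.0243 for the difference. The constructs kept their order at 4 weeks, with log2 differences of -0.83 and -0.46 for the JAK2 parts and -1.23 for pEGFP. The exact permutation test of 3 against 3 libraries cannot go below a p of 0.1, which the first JAK2 part and pEGFP reached.

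**Figure D5:**
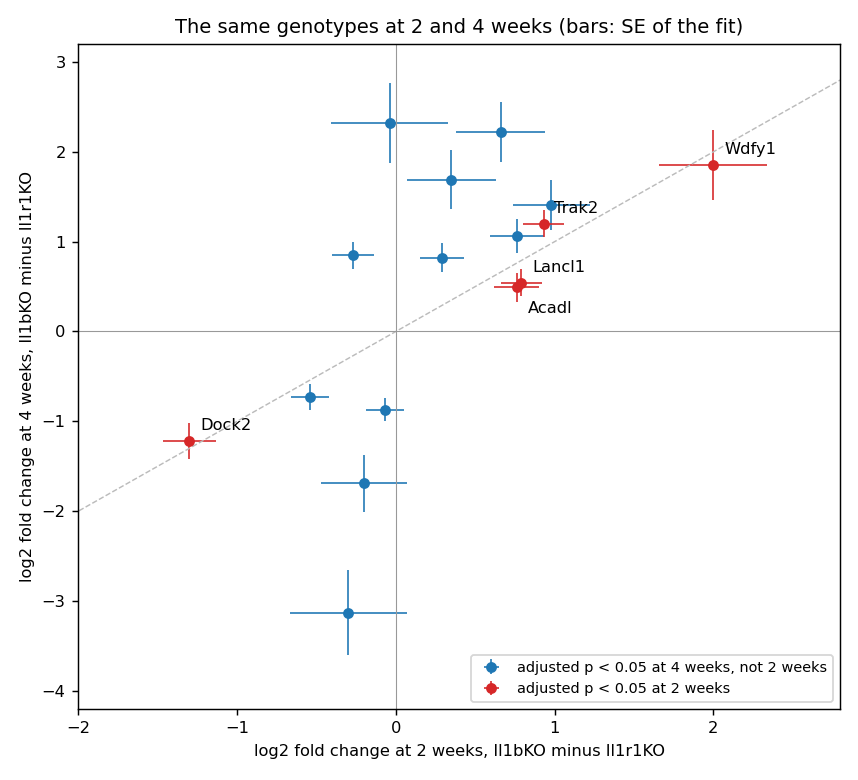
Log2 fold change (Il1bKO minus Il1r1KO) at 2 weeks (x axis) and 4 weeks (y axis) for the 5 genes called at 2 weeks (red) and 11 of the 14 genes called at 4 weeks and not at 2 weeks (blue), with SE of the fit. The 3 genes not drawn had a log2 fold change at 4 weeks beyond 4 in size. The 5 red points have the same sign at both times.

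Depth was alike in the 8 libraries, at 25615916 to 31238212 counts and 13225 to 13484 detected genes. Log-scale correlations were 0.974 to 0.978 within Il1bKO, 0.959 to 0.981 within Il1r1KO and 0.965 to 0.977 between them, and these ranges overlap. On the first principal component, which held 26% of the variance, Il1r1KO 2 stood farthest out at 38.7, against a range of -28.9 to 14 for the others. The second component, with 17.1% of the variance, separated the knockouts: Il1bKO libraries lay from -30.4 to -6.16 and Il1r1KO libraries from 5.24 to 24.2. With the library Il1r1KO 2 left out, 3 genes were called, of which 2, Dock2 and Trak2, were among the 5.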

How the data were processed

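Stem cell RNA of 25 libraries was analysed as gene counts deposited by the authors, with 13641 genes and 4 construct sequences. Per the labels' protocols, RNA was isolated with PicoPure and unstranded SMART-Seq v4 libraries were made. Per the submitters' processing notes, the tools were STAR 2.7.10a, featureCounts (no version given), FastQC 0.11.5 and R 4.2.2, with the build mm10. Positions came from GENCODE vM21, which matched 13604 genes.

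The main test was edgeR 4.0.16 in R 4.3.3 (TMM, filterByExpr, robust quasi-likelihood). A single model held all 7 groups, and p was Benjamini-Hochberg adjusted over 13630 genes at 0.05. The common dispersion was 0.169. Constructs were compared on log2(CPM + 1) by exact permutation (SciPy 1.17.1). Floors are 3 counts over a group and cover counting error only.

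The genes compared and the 27 gene lists were chosen with earlier results of these data known. Named were the IL-1 receptor family, Jak2, Socs2, Cish and Pim1, all called genes, the lowest p values up to 5 a direction, and up to 4 called or 2 uncalled members a list. Further members are given to describe a list. Other fits used DESeq2 1.42.0, limma 3.58.1 (voom), RLE or upper-quartile scaling, other filters and sample sets, a replicate block, or 1 library fewer. A few results are not reported here. The test was checked on simulated data.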

Additional observations from a re-analysis of the deposited data

Results flagged for a closer look

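Within the 4 libraries of each knockout, 144 sets of values (the named genes and constructs) were searched for 1 library far from the other 3. Chance marks about 1 set in 20, and 12 were marked. Most concern genes near 0 reads. Il1rl1 stood at 0.033 CPM in Il1bKO 2 and at 1.56 CPM in Il1r1KO 4, Gp6 at 3.41 CPM in Il1r1KO 2, Slc4a1 at 4.61 CPM in Il1bKO 2 and 0.213 CPM in Il1r1KO 2, and Blnk at 0.183 CPM in Il1bKO 1, in each case with 0 in the other three. Lepr was at 15 CPM in Il1r1KO 3 against at most 4.03 CPM in the others, and Cpa3 at 0.47 CPM in Il1r1KO 3 against at least 2.45 CPM.

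Among well-read genes, Racgap1, a cytokinesis gene, was at 80.0 CPM in Il1bKO 2 against at least 122 CPM in the others. Lgals3bp was at 273 CPM in Il1bKO 3 against at least 289 CPM, and Dnajb9, an endoplasmic reticulum chaperone gene, at 45.0 CPM in Il1bKO 1 against at least 56.2 CPM. CreERT2 was at 568 CPM in Il1bKO 2 against at most 532 CPM.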

How the results depend on the processing

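No gene call or construct difference changed direction under any alternative, and the median log2 fold change of all genes stayed within 0.02 of 0. The 5 genes called at 2 weeks became 18 with DESeq2, 10 with limma voom, 3 with the replicate number as a block and 2 with that block in the compared groups alone, and 2 to 4 when 1 library was left out (2 without Il1bKO 1, 2 or 4 or Il1r1KO 1, 3 or 4, 3 without Il1r1KO 2). The same-numbered libraries did not pair: the correlations of their deviations from the group means were -0.068, 0.137, -0.157 and -0.00103. At 4 weeks 16 genes became 281 with DESeq2, 0 in the compared groups alone (431 at an unadjusted p under 0.05), 2 with limma voom, 5 with the block, and 10 (without Il1r1KO 5) to 365 (without Il1bKO 6) when 1 library was left out, 56 without Il1bKO 7. The 0 genes that differed between times became 34 with DESeq2 and 0 to 12 without 1 library. For the constructs, sign flips of the same-numbered pairs left the block values at -0.80 and -0.75 for the JAK2 parts and -0.96 for pEGFP, but cannot give an exact p under 0.125. Leaving out 1 library gave -0.85 to -0.73, -0.81 to -0.69 and -0.99 to -0.93, where the exact p cannot go below 0.0571. Fits without Il1bKO 5 of 4 weeks and with the block in the compared groups alone were added after seeing the data. With 4 libraries a group and a coefficient of variation of 0.411 between libraries, small differences and genes of few reads were not detectable.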

Other observations

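Values are given for sets of neighbouring, nearly identical genes. On chromosome 12, beside 1700047I17Rik2, the signal recognition particle genes Srp54a, Srp54b and Srp54c had means of 62.5, 94.3 and 78.1 CPM in Il1bKO and 43.1, 63.7 and 55.5 CPM in Il1r1KO, with log2 fold changes of 0.54, 0.57 and 0.49 at 2 weeks and 0.59, 0.63 and 0.40 at 4 weeks. None passed in edgeR at either time. On chromosome 2, from 40 to 50 Mb beyond Il1b, 10 of 64 tested genes (15.6%) had an unadjusted edgeR p under 0.05, 9 of them lower in Il1bKO, and 0 were called, beside 3.02% and, for lower in Il1bKO, 1.34% of all genes tested. The windows from 20 to 30 and 30 to 40 Mb had 2.48% and 2.47%. Zfp971 there had means of 4.40 and 11.7 CPM, and Gm14305 6.73 and 11.5 CPM. Fam49a on chromosome 12 had 73.6, 58.5, 85.1 and 60.2 CPM in Il1bKO and 26.0, 42.7, 37.9 and 44.6 CPM in Il1r1KO, with log2 fold changes of 0.88 and 0.94 at the 2 times and an edgeR adjusted p of 0.13 at 2 weeks. DESeq2 and limma voom called Fam49a at 2 weeks (adjusted p = 0.00744 and 0.0459). These genes were chosen after their values were seen.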
